A study of Mus musculus with 7 samples.

Results

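The fibroblast growth factor (FGF) receptors and the feedback genes of the extracellular signal-regulated kinase (ERK) pathway were examined in bulk RNA sequencing of oligodendroglia from the early postnatal mouse brain. The members were the 10 genes whose names in the deposited count tables were Fgfr1, Fgfr2, Fgfr3, Spry1, Spry2, Spry4, Dusp6, Il17rd, Etv4 and Etv5, out of 49315 gene IDs. The Sox9-tg group held 4 libraries of cells that overexpressed the transcription factor Sox9. The control group held 3 libraries of cells with the Sox9-wt genotype. The labels gave a single cell source for both groups. The promoter or driver of the transgene, the strain, the sex, the exact age and any culture step were not stated in the labels. The sample titles called the libraries biological replicates without saying whether they came from separate animals or cultures, so the p-values measure only the spread between these samples, which may be technical.

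FGFs bind receptor tyrosine kinases at the cell surface, and the activated receptors recruit adaptors that switch on Ras and the ERK cascade. ERK in turn raises transcription factors of the ETS family and a set of inhibitors (Sprouty proteins, the ERK phosphatase Dusp6 and the membrane protein Il17rd, also called Sef) that restrain the same pathway, so the levels of these genes are often used as a readout of its activity. In the oligodendrocyte lineage FGF signals promote progenitor proliferation, and Fgfr1 and Fgfr2 are known for roles in myelin growth, while Fgfr3 is strongly expressed in astrocytes and neural progenitors.

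Levels are given in CPM, a gene's counts relative to the library's total after TMM scaling, which corrects for differences in RNA composition. Library totals ran from 15768472 to 30507326 counts, and single members had 464 to 10275 counts in a library. The label check was the overexpressed gene: Sox9 stood at 2207, 2741, 3597 and 3115 CPM in Sox9-tg libraries, against 239, 353 and 293 CPM in control libraries. That was a 9.88-fold higher level in Sox9-tg cells, with no overlap between groups. Counts per gene cannot separate transgene transcripts from those of the endogenous gene. All 8 NG2 glia markers examined were detected in every library. Their summed level was 6864 to 10906 CPM in Sox9-tg libraries and 2013 to 2540 CPM in control libraries. Astrocyte markers summed to 1495 to 2197 CPM in Sox9-tg libraries and 2227 to 4002 CPM in control libraries. In bulk samples such as these, a change in the share of cells of a type and a change in RNA per cell cannot be told apart. Sox9-tg replicates 3 and 4 were much closer to each other than other libraries of a group (chi-square per degree of freedom of their counts 5.29, against 45.0 to 93.6 for the other pairs within groups, with 1 standing for sampling noise alone). They differed by more than sampling noise and were counted as separate samples.

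Of the 10 members, 1 rose and 1 fell in Sox9-tg cells at an adjusted p under 0.05 (edgeR's quasi-likelihood test, Benjamini-Hochberg adjustment over 16616 genes). The gene that rose was the receptor Fgfr2 and the gene that fell was the feedback inhibitor Il17rd. Over all genes tested, 13.5% passed this threshold, 7.69% higher and 5.86% lower, so 2 of 10 members is not far from the background share. The groups did not overlap for 4 of the 10 members (Fgfr2 higher, and Fgfr1, Fgfr3 and Il17rd lower in Sox9-tg cells), against 24.5% of all genes, 13.1% higher and 11.5% lower. The median log2 fold change was 0.04 over the members and -0.01 over all genes tested. The 3 receptors all had separated groups, while 6 of the 7 feedback and target genes had groups that overlapped. Of these receptors, Fgfr1 and Fgfr3 did not pass the threshold, and the split by role was not tested.

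**Figure D1:**
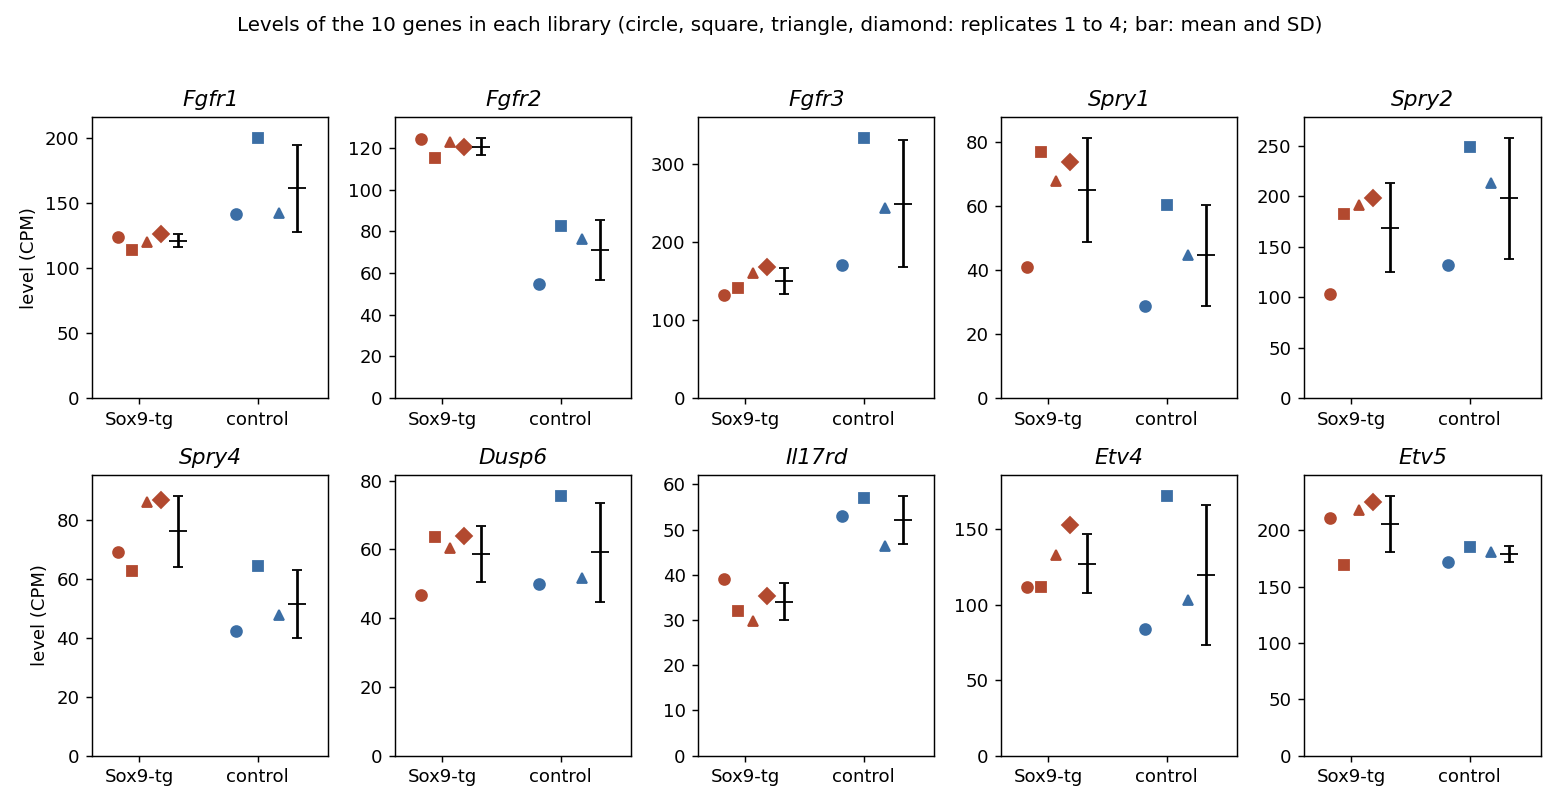
Level of each of the 10 members in every library (y axis, CPM), with Sox9-tg libraries left of control libraries; colored points are single libraries (circle, square, triangle and diamond for replicates 1 to 4) and black bars mark the mean and SD of the 4 Sox9-tg and 3 control libraries. Fgfr2 points of Sox9-tg libraries (115 to 124 CPM) all lie above those of control libraries (54.9 to 82.5 CPM), and Il17rd points (29.9 to 39.1 CPM) all lie below those of control libraries (46.4 to 57.1 CPM).

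Fgfr2 encodes a receptor tyrosine kinase for FGFs and lies on the minus strand of chromosome 7 (GRCm38, chr7:130162451-133123350, GENCODE M21). Sequences before the RefSeq start of Fgfr2, Il17rd and Fgfr3 are shown because these are the members with the largest differences in level. That of Spry2 is shown because it held the single match of a motif search. Each runs 5′ to 3′ on the gene's strand (RefSeq, GRCm38.p6). Those of Fgfr2 and Spry2 are the 250 bases before the RefSeq start. Those of Il17rd (190 bases) and Fgfr3 (200 bases) stop earlier, at the base before the GENCODE start, which lies inside the window. The Fgfr2 window lies within the GENCODE span given above, so it is not upstream of the GENCODE start of that gene. Another Fgfr3 window (chr5:33722056-33722305) is not printed. Capitals mark letters of a SOX motif.
Fgfr2 (chr7:130266809-130267058): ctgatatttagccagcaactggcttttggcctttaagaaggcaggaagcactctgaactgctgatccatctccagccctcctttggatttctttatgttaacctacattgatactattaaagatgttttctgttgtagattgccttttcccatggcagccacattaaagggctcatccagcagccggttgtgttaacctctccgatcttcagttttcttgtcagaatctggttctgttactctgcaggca
Il17rd (chr14:27038751-27038940): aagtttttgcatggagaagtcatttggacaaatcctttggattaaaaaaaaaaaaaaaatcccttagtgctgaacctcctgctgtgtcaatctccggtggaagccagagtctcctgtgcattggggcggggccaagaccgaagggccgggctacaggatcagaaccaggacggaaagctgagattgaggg
Fgfr3 (chr5:33721474-33721673): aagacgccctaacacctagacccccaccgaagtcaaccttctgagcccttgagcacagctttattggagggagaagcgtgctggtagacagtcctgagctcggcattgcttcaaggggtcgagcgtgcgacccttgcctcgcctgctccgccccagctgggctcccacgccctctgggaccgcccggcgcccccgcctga
Spry2 (chr14:105896820-105897069): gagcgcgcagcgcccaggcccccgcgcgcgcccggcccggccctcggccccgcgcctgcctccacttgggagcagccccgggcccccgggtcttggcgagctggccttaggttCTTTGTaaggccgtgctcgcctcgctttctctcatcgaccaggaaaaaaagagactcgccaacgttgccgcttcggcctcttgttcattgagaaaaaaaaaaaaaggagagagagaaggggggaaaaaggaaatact
The whole window of 250 bases before each RefSeq start, also where a shorter part is printed, was searched on both strands for the SOX letters ACAAAG or ACAATG and for the ETS letters CCGGAAG. Of the members, 7 had an entry, with 9 windows in all. The SOX letters stood in 25.2% of all 32851 windows and in 1 of the 9 member windows, that of Spry2, where ACAAAG lay on the opposite strand and reads as CTTTGT 137 to 132 bases before the start. The ETS letters stood in 6.91% of all windows and in 0 of the 9, so no matches of the 2 motifs overlapped there. A match is a description of the letters, and no match says only that these letters are not in this window.

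Fgfr2 stood at 124, 115, 123 and 121 CPM in Sox9-tg libraries, against 54.9, 82.5 and 76.2 CPM in control libraries. All 4 Sox9-tg libraries lay above all 3 control libraries, and they lay close together while control replicate 1 was the lowest. The means were 121 ± 4.10 CPM in Sox9-tg cells and 71.2 ± 14.4 CPM in control cells (SD, n = 4 and n = 3). The fold was 1.69, with a log2 fold change of 0.76 (SE 0.15, 95% interval 0.43 to 1.09) and an adjusted p of 0.0102 by edgeR's quasi-likelihood test. The annotation gives Fgfr2 a long transcript that reaches into Ctbp2, which encodes a transcriptional corepressor, and 314 exon bases belong to both genes. Ctbp2, looked up for this overlap and named after its values were seen, moved the other way, at 68.5 ± 3.34 CPM in Sox9-tg cells and 87.7 ± 1.68 CPM in control cells (SD, n = 4 and n = 3), with a log2 fold change of -0.36 and an adjusted p of 0.0349. All 8 NG2 glia markers were also called higher in Sox9-tg cells. So were 5 of 8 markers of myelinating oligodendrocytes, which summed to 767 to 4683 CPM in Sox9-tg libraries and 143 to 282 CPM in control libraries. Of that list, Mog did not pass, Mobp and Opalin had too few counts to test, and Opalin was at 0 in Sox9-tg replicates 1 and 4 and control replicates 1 and 2. Sox9-tg replicate 1 had the highest Fgfr2 level, by a narrow margin, and the lowest sums of its group for NG2 glia (6864 CPM) and myelinating oligodendrocytes (767 CPM). The part of these markers in the Fgfr2 result was not tested.

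Fgfr3 encodes the FGF receptor that marks astrocytes and progenitors (chr5:33721674-33737068, plus strand). It stood at 133, 141, 161 and 168 CPM in Sox9-tg libraries, against 171, 334 and 244 CPM in control libraries. The groups did not overlap, but the highest Sox9-tg library and the lowest control library nearly met, and control replicate 2 was the highest of all. The means were 151 ± 16.4 CPM in Sox9-tg cells and 249.7 ± 81.6 CPM in control cells (SD, n = 4 and n = 3). The log2 fold change was -0.73 (SE 0.21, 95% interval -1.21 to -0.25), and the adjusted p of 0.0519 just missed the threshold, while DESeq2's Wald test passed it (adjusted p = 0.00891). Without control replicate 2 the log2 fold change was -0.46 (adjusted p = 0.158) and without control replicate 1 it was -0.93 (adjusted p = 0.0201). The astrocyte marker sum, 1495 to 2197 CPM in Sox9-tg libraries and 2227 to 4002 CPM in control libraries, was also highest in control replicate 2. That library was the highest control library for all 10 members, Fgfr2 among them. Of its 8 genes, 3 were called lower in Sox9-tg cells (Aqp4, Slc1a2 and Gja1), and none was at 0 in any library. Neural progenitor markers summed to 584 to 695 CPM in Sox9-tg libraries and 1205 to 1382 CPM in control libraries, with 5 of 8 called lower and none at 0. Their part in the Fgfr3 values was not tested.

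A transcript of unassigned type on the opposite strand, G630022F23Rik (chr5:33720043-33723669), spans the start of Fgfr3 and shares 998 exon bases with it. It was looked up for this overlap and named after its values were seen. Its level was 20.4, 23.1, 24.9 and 26.7 CPM in Sox9-tg libraries, against 5.52, 7.54 and 9.19 CPM in control libraries. All Sox9-tg libraries lay above all control libraries, opposite in direction to Fgfr3. The log2 fold change was 1.67 (SE 0.20), with an adjusted p of 0.00115 by edgeR's quasi-likelihood test. It held 2397 counts in all libraries together, against 32063 for Fgfr3. No source used here says whether reads were counted by strand, so reads of the 2 overlapping genes cannot be told apart with certainty.

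Fgfr1 encodes the most widely expressed FGF receptor (chr8:25513654-25575718, plus strand). It stood at 124, 114, 121 and 126 CPM in Sox9-tg libraries, against 142, 200.4 and 143 CPM in control libraries. The groups did not overlap, the 4 Sox9-tg libraries were nearly level, and control replicate 2 was far above the other controls. The means were 121 ± 5.24 CPM in Sox9-tg cells and 162 ± 33.6 CPM in control cells (SD, n = 4 and n = 3). The log2 fold change of -0.41 (SE 0.14, 95% interval -0.74 to -0.09) did not pass (adjusted p = 0.0941).

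To compare the receptors with each other, CPM were divided by the length of each gene's merged exons in kilobases, and each receptor was given as a percentage of the summed level of the 3. Fgfr2 made up 27.9%, 26.2%, 25.6% and 24.4% of this sum in Sox9-tg libraries, against 12.2%, 10.7% and 13.2% in control libraries. Fgfr3 made up 43.0%, 46.5%, 48.3% and 48.9% in Sox9-tg libraries, against 54.9%, 62.3% and 61.0% in control libraries. Fgfr1 made up 29.1%, 27.3%, 26.2% and 26.7% in Sox9-tg libraries, against 32.9%, 27.1% and 25.8% in control libraries. The shares of Fgfr2 and Fgfr3 did not overlap between groups and those of Fgfr1 did. Fgfr3 was the largest share in every library. On the log2 scale, the ratio of Fgfr2 to Fgfr1 per kilobase was -0.13 to -0.04 in Sox9-tg libraries and -1.43 to -0.97 in control libraries, so the pair stood nearly level in Sox9-tg cells and Fgfr2 stood well below Fgfr1 in control cells. The ratio of Fgfr2 to Fgfr3 was -1.005 to -0.62 in Sox9-tg libraries and -2.55 to -2.17 in control libraries. These shares describe unequal change among the 3 genes and were not tested. Their absolute values depend on the length used: from the longest transcript, Fgfr2 made up 31.4% in Sox9-tg cells and 15.2% in control cells. Fgfr1 then made up 27.7% in Sox9-tg cells and 30.4% in control cells. By that length Fgfr2 stood above Fgfr1 in every Sox9-tg library, so the near-level pair holds for merged exons.

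**Figure D2:**
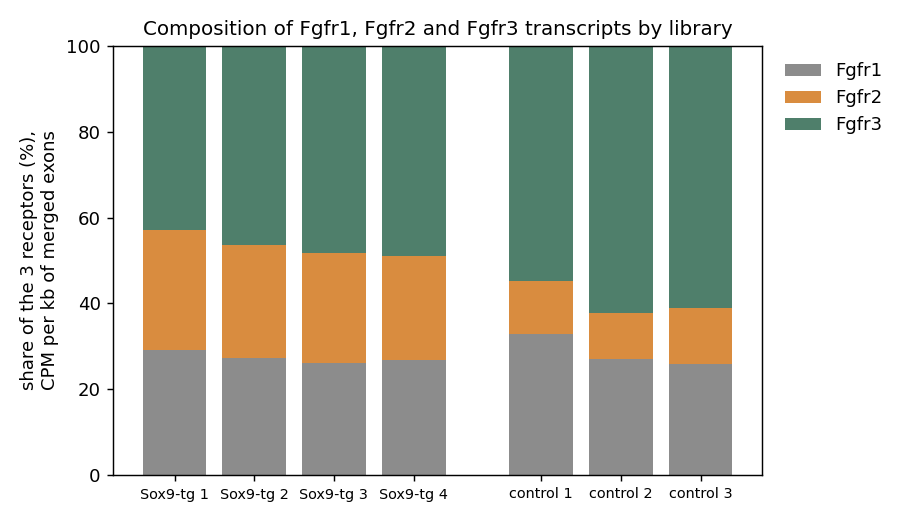
Share of Fgfr1, Fgfr2 and Fgfr3 in their summed level per kilobase of merged exons (y axis, percent) in each library, Sox9-tg libraries left of control libraries. The Fgfr2 share is 24.4% to 27.9% in Sox9-tg libraries and 10.7% to 13.2% in control libraries.

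Il17rd encodes a transmembrane protein that restrains FGF and ERK signalling (chr14:27038941-27107286, plus strand). It stood at 39.1, 32.02, 29.9 and 35.3 CPM in Sox9-tg libraries, against 53.0, 57.1 and 46.4 CPM in control libraries. Every Sox9-tg library lay below every control library, and both groups had a narrow spread. The means were 34.1 ± 4.03 CPM in Sox9-tg cells and 52.1 ± 5.39 CPM in control cells (SD, n = 4 and n = 3). The level in Sox9-tg cells was 0.654 times that in control cells, with a log2 fold change of -0.61 (SE 0.13, 95% interval -0.90 to -0.32) and an adjusted p of 0.0154 by edgeR's quasi-likelihood test. The call was lost, at a like size of change, when Sox9-tg replicate 3 (adjusted p = 0.0591) or control replicate 1 (0.0621) was left out and with Sox9-tg replicates 3 and 4 summed into 1 sample (0.0505). Markers of neural progenitors were lower alongside it, as given for Fgfr3. Neuronal markers summed to 428 to 1161 CPM in Sox9-tg libraries and 1255 to 2348 CPM in control libraries, with 5 of 8 called lower and none at 0. The part of either in the Il17rd result was not tested.

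The Sprouty genes encode inhibitors that act on the receptor and Ras end of the pathway, and none of the 3 passed the threshold. Spry4 (chr18:38586247-38601415, minus strand) stood at 69.1, 62.6, 86.0 and 86.7 CPM in Sox9-tg libraries, against 42.2, 64.3 and 47.7 CPM in control libraries. The groups overlapped only through control replicate 2 and Sox9-tg replicate 2. The log2 fold change was 0.56 (SE 0.18, 95% interval 0.16 to 0.97, adjusted p = 0.0747), or 0.77 without control replicate 2, where it passed (adjusted p = 0.0331). Spry1 (chr3:37639947-37644598, plus strand) stood at 41.2, 77.1, 68.1 and 73.9 CPM in Sox9-tg libraries, against 28.8, 60.4 and 44.6 CPM in control libraries. The library numbered 1 was the lowest of each group, and Sox9-tg replicate 1 fell inside the control range. Its log2 fold change was 0.54 (SE 0.28, 95% interval -0.09 to 1.17, adjusted p = 0.256). Gm42922, a transcript of unassigned type on the opposite strand, shares 710 exon bases with Spry1. It was low, at 2.11 ± 0.674 CPM in Sox9-tg cells and 1.48 ± 0.268 CPM in control cells (SD, n = 4 and n = 3). Spry2 (chr14:105891947-105896819, minus strand) stood at 104, 182, 191 and 198 CPM in Sox9-tg libraries, against 132, 249 and 213 CPM in control libraries. The groups overlapped broadly, again with the library numbered 1 lowest in each. Its log2 fold change was -0.23 (SE 0.27, 95% interval -0.84 to 0.38, adjusted p = 0.638).

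Dusp6 encodes a phosphatase that removes the activating phosphates of ERK in the cytoplasm (chr10:99263231-99267489, plus strand). It stood at 46.7, 63.5, 60.4 and 63.9 CPM in Sox9-tg libraries, against 50.0, 75.7 and 51.8 CPM in control libraries. The groups overlapped almost fully. The means were 58.6 ± 8.12 CPM in Sox9-tg cells and 59.1 ± 14.3 CPM in control cells (SD, n = 4 and n = 3), and the log2 fold change was -0.01 (SE 0.18, 95% interval -0.42 to 0.39, adjusted p = 0.974). The interval still allows changes of that size in either direction.

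Etv4 and Etv5 encode ETS transcription factors that ERK signalling induces. Etv4 (chr11:101769742-101785371, minus strand) stood at 111, 112, 133 and 152 CPM in Sox9-tg libraries, against 83.6, 172 and 103 CPM in control libraries. The control libraries reached both below and above all Sox9-tg libraries. Its log2 fold change was 0.09 (SE 0.24, 95% interval -0.45 to 0.63, adjusted p = 0.857). Etv5 (chr16:22381309-22439719, minus strand) stood at 211, 169, 218 and 225 CPM in Sox9-tg libraries, against 172, 185 and 180.3 CPM in control libraries. Of the Sox9-tg libraries 3 lay above all controls, and replicate 2 lay below them. For Etv5 the log2 fold change was 0.20 (SE 0.13, 95% interval -0.09 to 0.49, adjusted p = 0.362).

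**Figure D3:**
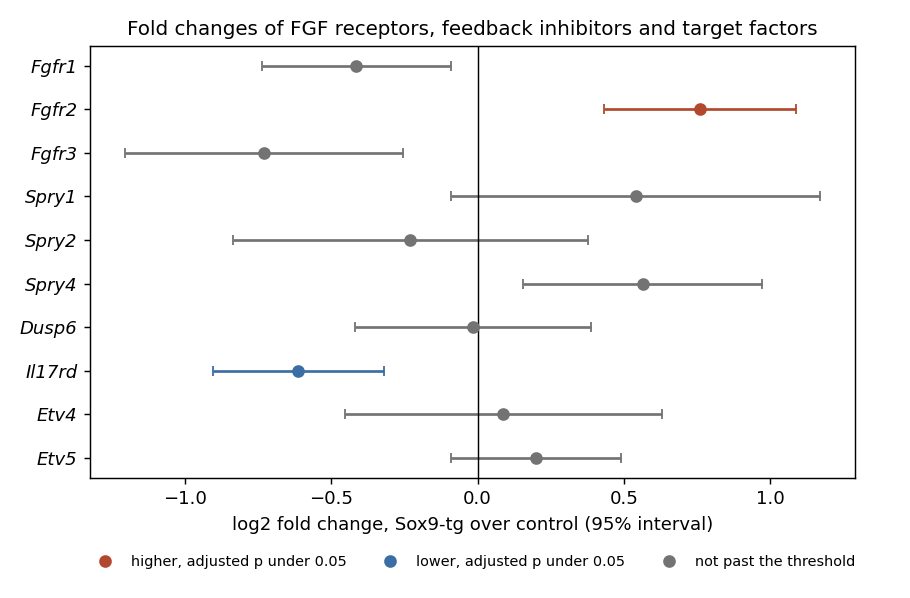
Log2 fold change of each member, Sox9-tg over control (x axis), with its 95% interval from edgeR's quasi-likelihood fit; colored points (red higher, blue lower) passed the threshold of 0.05 on the adjusted p and grey points did not. Fgfr2 (0.76) and Il17rd (-0.61) are the members that passed, and Fgfr3 (-0.73) has an adjusted p of 0.0519.

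Per kilobase of merged exons, Spry2 was the highest member in both groups, at 80.9 ± 21.1 CPM per kilobase in Sox9-tg cells and 94.9 ± 28.7 in control cells (SD, n = 4 and n = 3). Il17rd was the lowest in both, at 3.10 ± 0.367 CPM per kilobase in Sox9-tg cells and 4.75 ± 0.491 in control cells. The order in Sox9-tg cells was Spry2, Etv5, Etv4, Spry1, Fgfr3, Dusp6, Spry4, Fgfr1, Fgfr2 and Il17rd. Neighbours in this order had separate ranges only at Etv4 over Spry1, Spry4 over Fgfr1 and Fgfr2 over Il17rd. The order in control cells was Spry2, Etv5, Etv4, Fgfr3, Dusp6, Fgfr1, Spry1, Spry4, Fgfr2 and Il17rd. There the separate neighbours were Spry2 over Etv5, Spry4 over Fgfr2 and Fgfr2 over Il17rd. Both orders hold for merged exons only. Merged exons spanned 9875 bases for Fgfr1, 10328 for Fgfr2 and 7158 for Fgfr3, against 5041, 4429 and 4245 in the longest transcript. Spry4 had 4755 bases either way. The places of the receptors, with Spry4 over Fgfr1 or Fgfr2, therefore depend on the length used. By merged exons, the mean of Spry1 was above that of Fgfr3 in Sox9-tg cells, at 22.4 ± 5.63 against 21.0 ± 2.30 CPM per kilobase. Their ranges overlapped. In control cells Spry1 stood below Fgfr3, at 15.4 ± 5.44 against 34.9 ± 11.4 CPM per kilobase. Spry1 had 2906 bases of merged exons and 2773 in its longest transcript. The longest transcript would raise Fgfr3 more than Spry1, so the switch between groups also depends on the length used.

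Within the groups the members moved with the library. Sox9-tg replicate 4 was the highest Sox9-tg library for 7 of the 10 members, against 16.3% of all genes tested. Control replicate 2 was the highest control library for all 10 members, against 40.3% of all genes tested. Control replicate 1 was the lowest control library for 9 of the 10, against 38.6% of all genes. Il17rd, lowest in control replicate 3, was the exception. The spread on the log2 scale was larger among control than among Sox9-tg libraries for 8 of the 10 members. Control replicate 2 was also the library with the highest sums of astrocyte markers (4002 CPM), microglial markers (676.5 CPM, against 98.2 to 195 CPM in the other controls) and endothelial and mural markers (207 CPM, against 28.1 to 32.03 CPM). Microglial markers summed to 52.7 to 292 CPM and endothelial and mural markers to 23.9 to 61.2 CPM in Sox9-tg libraries. Both sums were highest in Sox9-tg replicate 2. That library was the highest Sox9-tg library for 1 of the 10 members and the lowest for 4. The part of these markers in the members' levels was not tested.

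**Figure D4:**
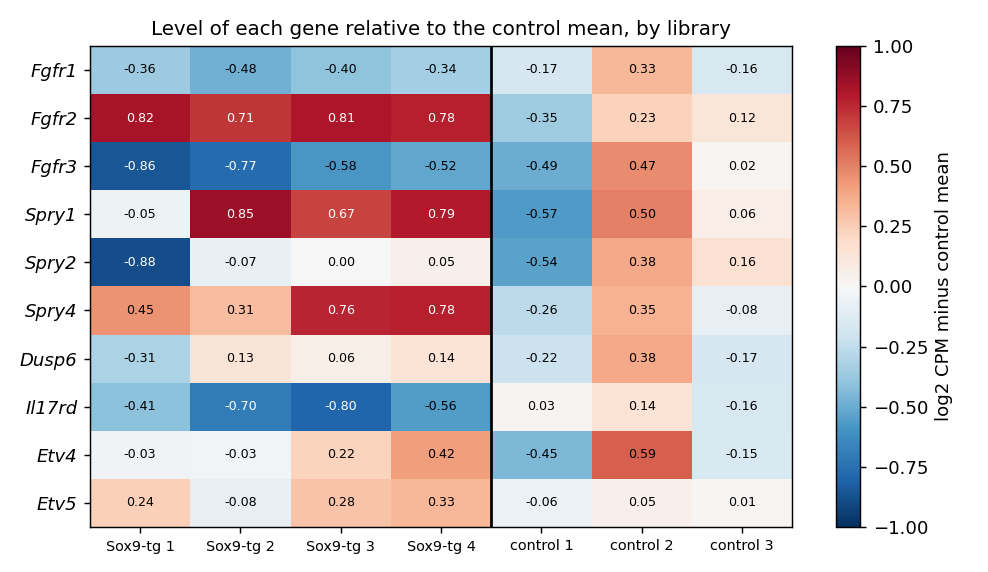
Log2 level of each member in each library relative to the mean of the control libraries (color scale, log2 units), Sox9-tg libraries left of control libraries. Control replicate 2 is the highest control library for every member, and Fgfr2 is above 0 in all 4 Sox9-tg libraries.

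A fixed measure of likeness was the Euclidean distance between log2 CPM centred on each gene's mean over the 7 libraries. Predicted genes and clone names were left out. The genes most like Fgfr2 were then Cyp4f17 (distance 0.226, log2 fold change 0.71) and C2cd4d (distance 0.251, log2 fold change 0.68). C2cd4d was low, at 2.32 CPM in Sox9-tg cells and 1.43 CPM in control cells. Those most like Il17rd were Znhit3 (distance 0.180, log2 fold change -0.62) and Atl2 (distance 0.225, log2 fold change -0.55). These distances describe 7 libraries and were not tested.

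The rest of the pathway was read from 7 lists of 87 genes, of which 73 passed the filter on low counts and were tested. Of these, 12 rose and 5 fell in Sox9-tg cells, 23.3% of those tested against 13.5% of all genes. The lists were chosen with earlier results of these data known, so this difference is only a description and was not tested. The counts per list below stand beside that 13.5%, with 7.69% of all genes higher and 5.86% lower. The share differed between lists, from 0 of 4 intracellular FGF homologous factors to 4 of 5 further receptors and co-receptors.

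Among further FGF receptors and co-receptors, 3 of the 5 tested rose and 1 fell, while the median log2 fold change was 0.54. Fgfr4, the remaining kinase receptor of the family, had a low level of 3.29 ± 0.691 CPM in Sox9-tg cells and 1.07 ± 0.431 CPM in control cells (SD, n = 4 and n = 3; log2 fold change 1.63, adjusted p = 0.0243). Fgfrl1, a receptor without a kinase domain, had 94.9 ± 17.4 CPM in Sox9-tg cells and 48.1 ± 17.4 CPM in control cells (log2 fold change 0.98, adjusted p = 0.0295). Flrt3 and Flrt2 encode transmembrane proteins with leucine-rich repeats and moved in opposite directions. Flrt3 had 32.8 ± 4.57 CPM in Sox9-tg cells and 22.6 ± 2.21 CPM in control cells (log2 fold change 0.54, adjusted p = 0.0369). Flrt2 had 41.4 ± 11.9 CPM in Sox9-tg cells and 87.6 ± 28.4 CPM in control cells (log2 fold change -1.08, adjusted p = 0.0306). All 4 calls were lost when certain single libraries were left out, while the direction stayed. With a library left out, the log2 fold change was 1.33 to 1.86 for Fgfr4 and 0.84 to 1.32 for Fgfrl1. It was 0.48 to 0.63 for Flrt3 and -1.30 to -0.83 for Flrt2. The adjusted p of Fgfr4, Fgfrl1, Flrt3 and Flrt2 was 0.0578, 0.0727, 0.116 and 0.0913 when Sox9-tg replicate 3 was left out, 0.0624, 0.0702, 0.121 and 0.0767 when Sox9-tg replicate 4 was, and 0.0884, 0.132, 0.159 and 0.109 when control replicate 3 was. Leaving out control replicate 1 gave 0.103 for Fgfrl1, 0.0722 for Flrt3 and 0.127 for Flrt2. Leaving out Sox9-tg replicate 2 gave 0.0514 for Fgfr4 and 0.0568 for Fgfrl1, and leaving out control replicate 2 gave 0.118 for Flrt3.

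Of 18 FGF ligands listed, 12 had too few counts to test, 2 of the 6 tested fell and none rose. The list's median log2 fold change was -0.14. Both that fell were low in every library. Fgf15, which encodes an endocrine FGF that is also made in the embryonic brain, stood at 0.368, 0.349, 0.193 and 0.390 CPM in Sox9-tg libraries, against 3.60, 2.05 and 1.00 CPM in control libraries. Fgf3, a secreted ligand, stood at 0.840, 0.249, 0.837 and 0.927 CPM in Sox9-tg libraries, against 7.15, 2.02 and 5.17 CPM in control libraries. Neither gene had overlapping groups. The log2 fold change was -2.72 for Fgf15 (adjusted p = 0.00873) and -2.73 for Fgf3 (adjusted p = 0.0117, or 0.0526 when control replicate 1 was left out and 0.0534 when control replicate 3 was). A level of 3 counts corresponded to 0.0970 to 0.193 CPM, so the levels of Fgf15 and Fgf3 in Sox9-tg libraries rest on few counts.

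In the core of the pathway, 20 of the 22 adaptors and ERK cascade genes did not pass, with a median log2 fold change of 0.00. Gab1, a docking protein that links receptors to the kinases downstream, was the exception that rose. It stood at 214, 248, 258 and 251 CPM in Sox9-tg libraries, against 84.0, 94.5 and 98.7 CPM in control libraries. The groups were far apart, with a log2 fold change of 1.39 (SE 0.12) and an adjusted p of 0.000311. Rps6ka2, which encodes a ribosomal S6 kinase activated by ERK, fell to 29.3 ± 2.02 CPM in Sox9-tg cells, against 42.8 ± 6.70 CPM in control cells (log2 fold change -0.54, adjusted p = 0.0256). That call was lost when control replicate 1 (0.114), control replicate 3 (0.102) or Sox9-tg replicates 2 (0.0585), 3 (0.0924) or 4 (0.0804) were left out.

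The list of 14 other ERK feedback genes also held Cbl, Cblb, Rasa1 and Nf1, which restrain receptors or Ras more generally and did not pass. Of the 14, 5 rose and 1 fell, and their median log2 fold change was 0.54 (-0.01 over all genes). Of the 5 feedback inhibitors among the members, 1 fell and none rose, with a median of -0.01, and the difference between the lists was not tested. Dusp9, which encodes another cytoplasmic ERK phosphatase, stood at 5.25, 20.2, 14.2 and 13.0 CPM in Sox9-tg libraries, against 0.349, 0.748 and 0.323 CPM in control libraries. Its level was 26.9-fold higher in Sox9-tg cells, with a log2 fold change of 4.75 (SE 0.55) and an adjusted p of 0.0011. Spry3, the remaining Sprouty gene, had 7.27 ± 1.38 CPM in Sox9-tg cells and 2.42 ± 0.189 CPM in control cells (SD, n = 4 and n = 3; log2 fold change 1.58, adjusted p = 0.00364). Phlda1, a pleckstrin homology protein, had 119.7 ± 16.8 CPM in Sox9-tg cells and 41.7 ± 2.38 CPM in control cells (log2 fold change 1.52, adjusted p = 0.000341). Dusp7, a phosphatase close to Dusp6, had 30.6 ± 4.87 CPM in Sox9-tg cells and 16.8 ± 5.17 CPM in control cells (log2 fold change 0.86, adjusted p = 0.0308). Errfi1, an inhibitor of the epidermal growth factor receptor, had 16.2 ± 1.66 CPM in Sox9-tg cells and 10.6 ± 1.73 CPM in control cells (log2 fold change 0.61, adjusted p = 0.0372). Dusp4, a nuclear phosphatase, was the gene that fell, at 35.3, 36.0, 37.2 and 40.9 CPM in Sox9-tg libraries, against 57.7, 45.8 and 111 CPM in control libraries (log2 fold change -0.94, adjusted p = 0.0487). The calls of Dusp7, Errfi1 and Dusp4 were lost when certain single libraries were left out and under other settings. With a library left out, the log2 fold change was 0.73 to 1.15 for Dusp7, 0.55 to 0.76 for Errfi1 and -1.17 to -0.47 for Dusp4. Their adjusted p was 0.0589, 0.0503 and 0.0924 when Sox9-tg replicate 2 was left out, 0.0826, 0.116 and 0.116 when replicate 3 was, and 0.0666, 0.113 and 0.0933 when replicate 4 was. Leaving out control replicate 1 gave 0.107, 0.128 and 0.0719, and leaving out control replicate 3 gave 0.135, 0.167 and 0.132. Dusp4 also missed the threshold when Sox9-tg replicate 1 was left out (0.0756) and with limma-voom (0.0752). Errfi1 also missed it with upper-quartile factors (0.0565), library totals (0.0646) and no filter (0.0603). With Sox9-tg replicates 3 and 4 summed, the values were 0.0733 for Dusp7, 0.113 for Errfi1 and 0.107 for Dusp4. Dusp9, Spry3 and Phlda1 kept their calls under all 15 alternatives.

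Of 10 other ERK target genes, mostly immediate-early transcription factors, 1 rose: Myc, a regulator of growth, had 76.7 ± 20.2 CPM in Sox9-tg cells and 23.04 ± 8.76 CPM in control cells (SD, n = 4 and n = 3; log2 fold change 1.73, adjusted p = 0.00727). The median log2 fold change of this list was 0.87, with 9 genes not passing. Heparan sulphate chains act as co-receptors for FGFs. Of 12 genes for their core proteins and sulphatases, 2 rose, with a list median of 0.25. With 13.5% of all genes called in either direction, that count is near the background share. Gpc6, a glypican core protein, had 58.5 ± 7.65 CPM in Sox9-tg cells and 30.5 ± 5.01 CPM in control cells (log2 fold change 0.94, adjusted p = 0.00478). Sulf2 encodes an extracellular enzyme that trims sulphate groups from heparan sulphate. It stood at 359, 618, 606 and 557 CPM in Sox9-tg libraries, against 156, 218 and 165 CPM in control libraries, with no overlap (log2 fold change 1.57, adjusted p = 0.00267).

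**Figure D5:**
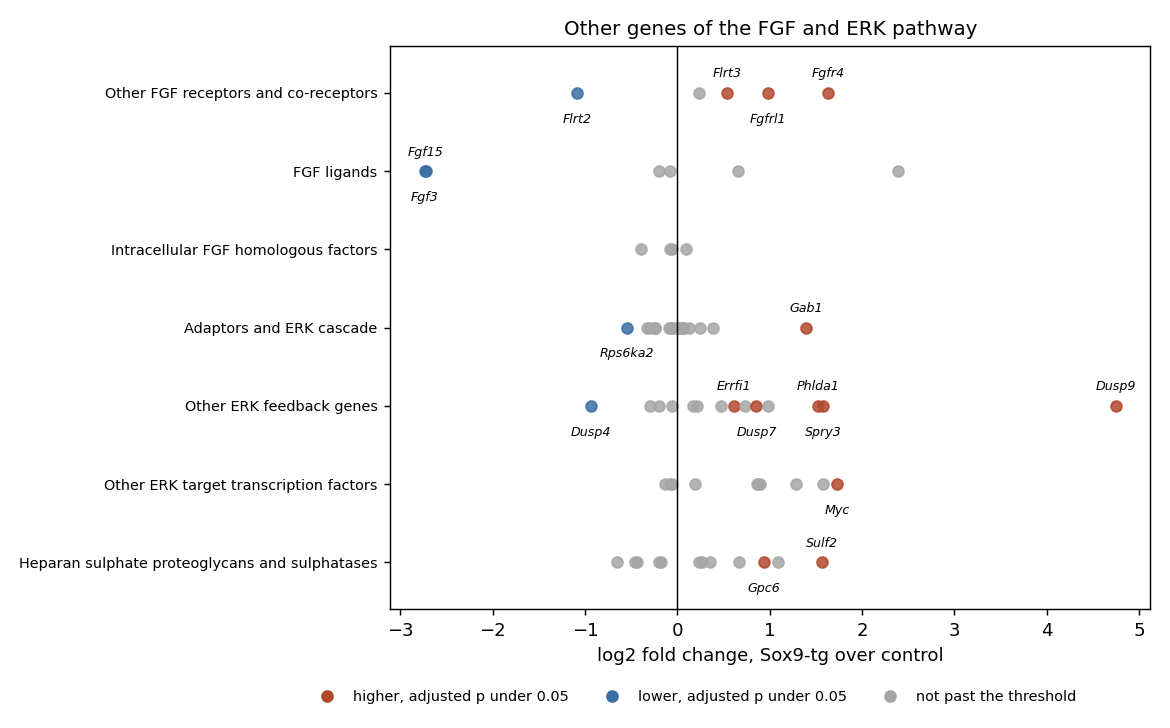
Log2 fold change, Sox9-tg over control (x axis), of each tested gene in the 7 further pathway lists (rows); colored points (red higher, blue lower) passed the threshold of 0.05 on the adjusted p, grey points did not, and the vertical line marks no change. The adaptors and ERK cascade genes centre on 0.00, with Gab1 at 1.39, and Dusp9 lies farthest to the right at 4.75.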

How the data were processed

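Bulk RNA of 4 Sox9-tg and 3 control libraries was analysed from raw read counts per gene, deposited by the authors as 1 table of whole numbers per library. Trimmomatic 0.36, STAR 2.5.2b, featureCounts, Subread 1.5.2, DESeq2, DESeq and GRCm38 are named in the submitters' processing notes. Not given in the sources used here are their settings, the annotation release and strand handling, so overlapping and antisense genes are uncertain.

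Genes were filtered with edgeR's filterByExpr (minimum count 10, minimum total 15), which kept 16616 genes. Removed genes held 0.0798% to 0.364% of a library's counts. Counts were scaled with TMM (factors 0.965 to 1.05) and tested with edgeR 4.0.16 in R 4.3.3 (quasi-likelihood F test, group as the only term, two-sided, Benjamini-Hochberg over all genes tested, threshold 0.05). SE was the size of the log2 fold change over the square root of F, and 95% intervals are unadjusted. Groups and replicate numbers came from the sample titles. Gene positions and exon lengths came from GENCODE M21. Alternatives were DESeq2 1.42.0, limma-voom (limma 3.58.1), other scalings, no filter, a replicate block and leaving out each library; summing Sox9-tg replicates 3 and 4 was added after seeing the data.

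The members and lists were chosen with earlier results of these data known. All 10 members were named, with Sox9 and up to 6 called genes of each list in order of p. The 2 genes most similar to each called member were also named, with predicted genes and clone names left out. Same-numbered libraries correlated at 0.31, 0.61 and 0.06 in their deviations from group means. The labels do not say that the numbers pair samples, and the main fit did not treat them as pairs. It therefore does not model any effect shared by same-numbered libraries. A fit with the number as a block is given below.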

Additional observations from a re-analysis of the deposited data

Results flagged for a closer look

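Among the 29 genes checked for a Sox9-tg library far from the rest of its group, 2 stood out. The gap to the nearest library, divided by the group's range, was compared with Dixon's 95% critical value for 4 samples, which chance passes in about 1 in 20 groups. Fgfrl1 had 69.1 CPM in Sox9-tg replicate 1, against 101 to 108 CPM in the other Sox9-tg libraries (ratio 0.835). Fgf3 had 0.249 CPM in Sox9-tg replicate 2, against 0.837 to 0.927 CPM in the other Sox9-tg libraries (ratio 0.867).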

How the results depend on the processing

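The direction and call of Fgfr2 were the same under all 15 alternatives run (log2 fold change 0.62 to 0.88), as were those of Fgf15, Gab1, Spry3, Dusp9, Phlda1, Myc, Gpc6 and Sulf2. Fgfr3 passed under 6 of 15: upper-quartile factors (adjusted p = 0.0476), library totals (0.0485), no filter (0.0485), DESeq2 (0.00891), the replicate block (0.0206) and without control replicate 1 (0.0201). Members called numbered 2, or 3 with upper-quartile factors, library totals or no filter (adding Fgfr3). They numbered 4 with DESeq2 (adding Fgfr3 and Spry4, adjusted p = 0.0332). The number was 1 with Sox9-tg replicates 3 and 4 summed and 1 to 3 when a library was left out (1 without Sox9-tg replicate 3). Genes called over all numbered 2251, or 3048 with DESeq2. They numbered 1358 with those replicates summed and 965 to 3169 when a library was left out (965 without control replicate 3). Pathway genes called numbered 17, or 22 with DESeq2 and 8 to 20 when a library was left out (8 without control replicate 3). With Sox9-tg replicates 3 and 4 summed they numbered 9, losing Fgfr4, Fgfrl1, Flrt2, Flrt3, Rps6ka2, Dusp4, Dusp7 and Errfi1. Calls split evenly under upper-quartile factors (1113 higher, 1112 lower) and library totals (1117 and 1087), against 1278 and 973 with TMM.

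The direction of Dusp6 turned without Sox9-tg replicate 1 or control replicate 2 (range -0.11 to 0.21) and that of Etv4 without Sox9-tg replicate 4, control replicate 1 or control replicate 3 (range -0.10 to 0.46). Receptor shares taken from raw counts were 30.9% in Sox9-tg cells and 33.9% in control cells for Fgfr1, 30.8% and 14.9% for Fgfr2, and 38.3% and 51.1% for Fgfr3. From longest transcripts, Fgfr2 was 31.4% in Sox9-tg cells and 15.2% in control cells and Fgfr3 40.8% and 54.4%.

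The fit with the replicate number as a block, which left out Sox9-tg replicate 4, called 4 members, adding Fgfr3 and Spry1 (adjusted p = 0.0216), 28 pathway genes and 3086 genes over all. The pathway genes it added were Egr1 (adjusted p = 0.0025), Egr2 (0.000176), Fos (0.0134), Junb (0.0115), Ier2 (0.00239), Fgf7, Spred1, Nf1, Gpc1, Gpc2 and Sdc4. The labels do not say that the numbers pair samples. Sox9-tg replicates 1 and 2 correlated best with the controls of their own number (0.31 and 0.61), and replicate 3 nearly equally with control replicates 1 (0.084) and 3 (0.061). The causes of these differences were not tested. Counts of 464 or more per library limit members little, and the 3 to 4 libraries per group set the precision.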

Other observations

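The share of genes that were lowest in the library numbered 1 of both groups differed between lists. This held for 5 of the 10 members (Fgfr3, Spry1, Spry2, Dusp6 and Etv4) and for 7 of the 10 other ERK target genes (Egr1, Egr2, Fos, Junb, Ier2, Ier3 and Myc), against 19.5% of all 16616 genes tested. It also held for 6 of 12 heparan sulphate genes, 2 of 6 FGF ligands, 1 of 4 intracellular FGF homologous factors, 3 of 14 other ERK feedback genes, 1 of 5 further receptors and co-receptors and 3 of 22 adaptors and cascade genes. The pattern was noticed in these data and was not tested. Egr1 and Fos, chosen after their values were seen, show its size. Egr1 stood at 1345, 4450.0, 5269 and 5078 CPM in Sox9-tg libraries, against 322, 2043 and 2609 CPM in control libraries. Fos stood at 332, 1940.1, 1529 and 1651 CPM in Sox9-tg libraries, against 95.8, 1057 and 1095 CPM in control libraries. Neither passed the threshold between groups in the fit without the replicate number (edgeR's quasi-likelihood test, adjusted p = 0.267 for Egr1 and 0.535 for Fos).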
